A study of Mus musculus with 10 samples.

Results

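Palmoplantar epidermis, the thick stratified epithelium that covers the paw pads, was set against all 4 cell populations of the eccrine sweat apparatus that opens through it. Of the 10 arrays in the study, 2 held palmoplantar epidermis and 8 held sweat populations: the basal and the suprabasal layer of the duct, and the myoepithelial and the luminal cells of the gland, with 2 arrays each. From 12393 genes, each taken at its probe set of highest mean signal, 85 were bright in epidermis and 97 were dim. A bright gene had a lower epidermal signal of at least 500 that was at least 3 times the highest of the 8 sweat signals. A dim gene had a signal of at least 500 on all 8 sweat arrays and was at least 3 times lower on both epidermal arrays than on the lowest sweat array. These limits used the signals themselves, so bright and dim genes are described by their values and carry no test.

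All cells came from paw pads of wild-type female mice on the CD1 background and were purified by fluorescence-activated cell sorting, and the labels give no transgene or treatment for any group. The labels place duct basal and duct suprabasal cells in the straight duct, and myoepithelial and luminal cells in the coiled portion of the gland. The 2 arrays of each population are called biological replicates there. The number of animals pooled for an array and the surface markers of the sort are not given in the sources used here. The p-values therefore measure the spread between these arrays. In such sorted bulk samples, fewer cells of a type and less RNA per cell cannot be told apart.

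In the epidermis, basal keratinocytes are held to the basement membrane by integrins and hemidesmosomes. As they move outward they stop dividing, fill with Krt1 and Krt10 filaments, cross-link small proline-rich proteins and loricrin into a cornified envelope with transglutaminases, and seal the spaces between cells with ceramides, cholesterol and fatty acids. Kallikrein proteases and their inhibitors then govern the shedding of the dead cells. In the sweat gland, luminal cells of the coil drive salt and water into the lumen through the Na-K-Cl cotransporter Slc12a2, basolateral pumps and potassium channels, myoepithelial cells contract around them, and the duct takes salt back.

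Signals are MAS5 intensities, an Affymetrix summary of each probe set, with a trimmed mean of 500 on each array. Palmoplantar epidermis had the lowest median signal, 65.1 and 66.8 on its arrays, against 91.9 to 119 on the sweat arrays, while it had 220 and 217 genes above a signal of 10000, against 140 to 195. The epidermal arrays correlated at 0.981 across genes, which are not independent replicates, and differed more than 2-fold for 505 genes. The pairs of sweat arrays correlated between 0.907 (duct suprabasal) and 0.974 (luminal).

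Each of the 9320 genes above a filter on low signals was tested with limma on log2(signal + 12), as epidermis minus the mean of the 4 sweat population means, with Benjamini-Hochberg adjustment at 0.05. In this contrast 4898 genes passed (52.6%): 1785 genes were higher in epidermis (19.2%) and 3113 were lower (33.4%). List counts below are to be read against these shares of 19.2% and 33.4%. Both epidermal arrays lay above all 8 sweat arrays for 1383 genes (14.8%) and below all 8 for 2319 (24.9%). The median log2 difference of all tested genes was -0.25, so list medians below are to be read against that value. After quantile normalization it was 0.03, with 2299 genes higher and 2287 lower, a share of 50.1% higher among the calls in place of 36.4%. Without epidermis array 1 the higher count was 1083, and without epidermis array 2 it was 1153, with 2061 lower. With the 8 sweat arrays pooled as 1 group, whose spread then holds the differences between sweat populations, 842 genes were higher and 1528 lower.

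The 4 pairwise contrasts share the epidermal arrays, so they are not independent. Against duct basal cells 1023 genes were higher in epidermis (11%) and 2145 lower (23%), and against duct suprabasal cells 1552 were higher (16.7%) and 2739 lower (29.4%). Against myoepithelial cells 1856 were higher (19.9%) and 2949 lower (31.6%), and against luminal cells 1787 were higher (19.2%) and 2430 lower (26.1%). At least 2-fold and past the threshold against each of the 4 populations were 351 genes on the higher side (3.77%) and 887 on the lower side (9.52%).

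The label of the epidermal arrays was set beside markers of each cell type. Krt1, Krt10 and Krt2, keratins of differentiating epidermis, were among the bright genes. Krt10 had signals of 40255 and 41859.7 on the epidermal arrays, against 472 to 10255 (median 1627) on the sweat arrays. Krt2, which mice make in sole, ear and tail epidermis, had 33655 and 25575 in epidermis, against 6.0 to 2106 (median 152) in the sweat populations. Krt9, the keratin of palms and soles, has no probe set of its own gene alone and was not analysed here. Of the basal keratinocyte markers Krt14 had 19873 and 24072 in epidermis, against 663 to 35992 (median 14808) in the sweat populations, and Krt5 had 6769.7 and 11347 in epidermis, against 156 to 26013 (median 7556) in the sweat populations, both inside the range of the sweat arrays; 1 of 2 other probe sets of Krt14 had the opposite sign. Of the wider basal keratinocyte list of 16 tested genes 9 were lower and 3 higher, with integrin and laminin genes under every sweat array, as given further on.

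Several markers of the gland were low in epidermis. Krt8, a keratin of simple epithelia, had signals of 17.8 and 3.5 in epidermis, against 905 to 19734 (median 6747) in the sweat populations, and its partner Krt18 had 18.3 and 14.9 in epidermis, against 444 to 17023 (median 4248) in the sweat populations. The smooth muscle genes Myh11 and Cnn1 stood at 8.0 and 13.1, against 23.3 to 19074 (median 62.4), and at 1.2 and 1.7, against 41.7 to 20511 (median 66.9), on the sweat arrays. The water channel gene Aqp5 was at 554 and 782 in epidermis, against 786 to 24287 (median 3882) in the sweat populations, with 1 epidermal array only just under the lowest sweat array. Krt1, Krt10 and Krt2 fit the label, but the limits for bright genes used these same signals, so they are no separate check. Among the other markers of differentiated epidermis, Krtdap and Flg were higher, Flg at low signals, and Ivl stayed under the filter. Markers of basal keratinocytes were mixed.

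**Figure D1:**
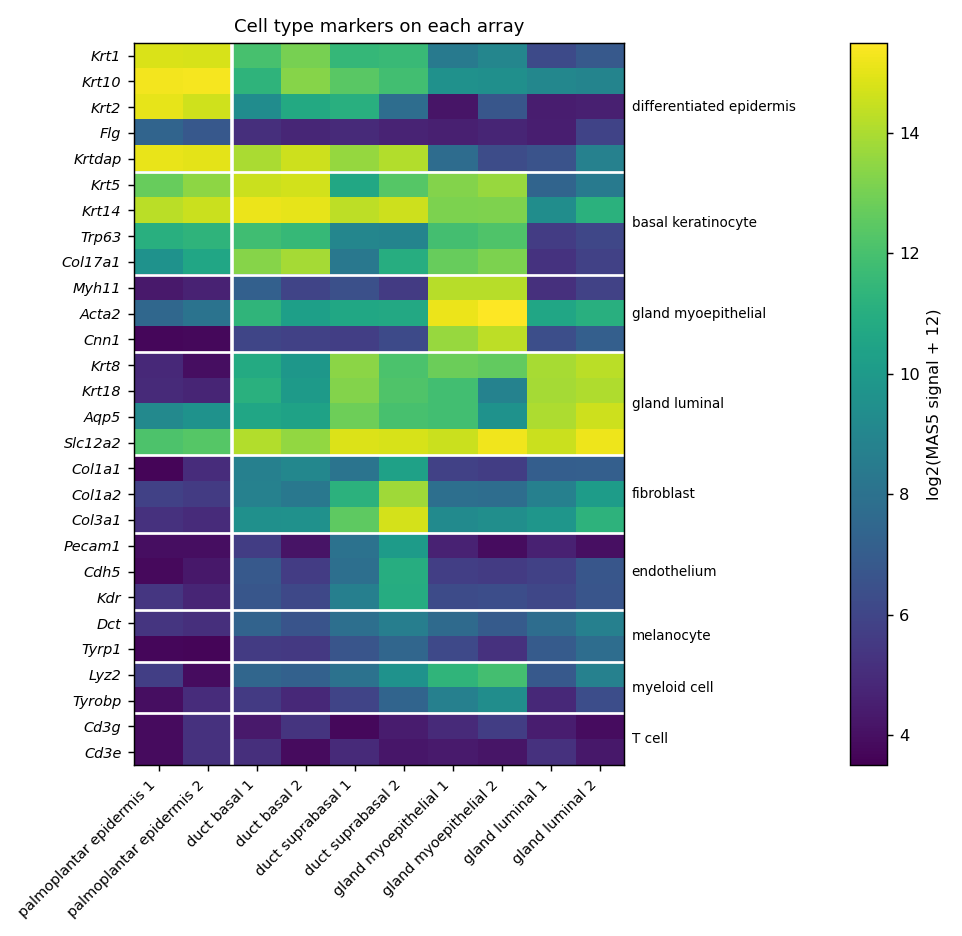
Signal of cell type markers on each array, as log2(MAS5 signal + 12), with palmoplantar epidermis in the left columns and the 8 sweat arrays to their right. Krt1, Krt10 and Krt2 are brightest on the epidermal arrays, Krt8 and Krt18 are dark there, and markers of fibroblasts and endothelium are brightest on duct suprabasal array 2.

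Markers of fibroblasts, endothelium, myeloid cells, melanocytes and Schwann cells were lower in epidermis than in sweat populations, and their part in the results below was not tested. Of 10 fibroblast genes tested, 9 were lower (4 with the 8 sweat arrays as 1 group), and of 11 endothelial genes 11 were lower (5 without epidermis array 1, 7 without epidermis array 2 and 6 without the duct suprabasal population). With the sweat arrays as 1 group limma called 0 endothelial genes, and 4 at an unadjusted p under 0.05. The summed signal of the fibroblast list was 1290 and 1576 in epidermis, against 2442 to 91540, and that of the endothelial list was 79.1 and 145, against 391 to 34551. For myeloid cells the sums were 343 and 300, against 646 to 8290, with 8 of 9 genes lower (4 without either epidermal array). Melanocyte genes summed to 194 and 186, against 549 to 3377, and Schwann cell genes to 241 and 202, against 1729 to 19166. The defining T cell genes Cd3e and Cd3g, each at a signal of 25.4 or less in epidermis, did not pass the filter on low signals. Of 7 Langerhans cell genes tested 3 were lower and 4 had no call, against 33.4% lower of all genes. The defining Langerhans cell marker Cd207 was at 2.9 and 3.4 in epidermis, against 2.1 to 10.5. Skeletal muscle genes summed to 304 and 333, against 110 to 235, and 1 of 3 tested, the myosin light chain Mylpf, was higher, at 210.4 and 189, against 27.4 to 70.6 (median 37.8) (log2 difference 2.01, SE 0.36, adjusted p = 0.00134). The few tested genes of T cells, Merkel cells and red blood cells had no call in either direction, also at an unadjusted p under 0.05. Globin probe sets that name several genes were not in the red blood cell list. All 4 of them met the limits for dim signal, at 1.6 to 87.3 in epidermis, against 666 to 14645 on the sweat arrays.

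The 85 bright genes (0.686% of all genes) spanned epidermal signals from 506 to 41859.7 and stood at measured ratios between 3 and 114 to the highest sweat signal, with a median of 5.92. The epidermal arrays lay within 2-fold of each other for 85 of the 85. For 28 genes the measured ratio was at least 10 (26 with sweat signals under 60.3, the highest 40th percentile of the 10 arrays, set to that value), and for 29 all 8 sweat signals were under 200. The highest sweat signal of a bright gene was on a duct basal array for 36 genes and on a duct suprabasal array for 34, but on a luminal array for 10 and on a myoepithelial array for 5. Duct arrays thus held the nearest sweat signal of these genes more often than gland arrays. The same count over all genes was not made, so no trait particular to bright genes is read from it. Of the 22 bright genes with several probe sets, another probe set lay outside the sweat range the same way for 18 and had the opposite sign for 4 (Ggct, Fdps, Mettl7a1 and Serhl). Just inside the 3-fold limit were Serhl (3.0), Erp29 (3.02) and Gjb6 (3.08), and just outside were Glrx (2.95), Kcnk7 (2.99) and Mrpl33 (2.99).

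**Figure D2:**
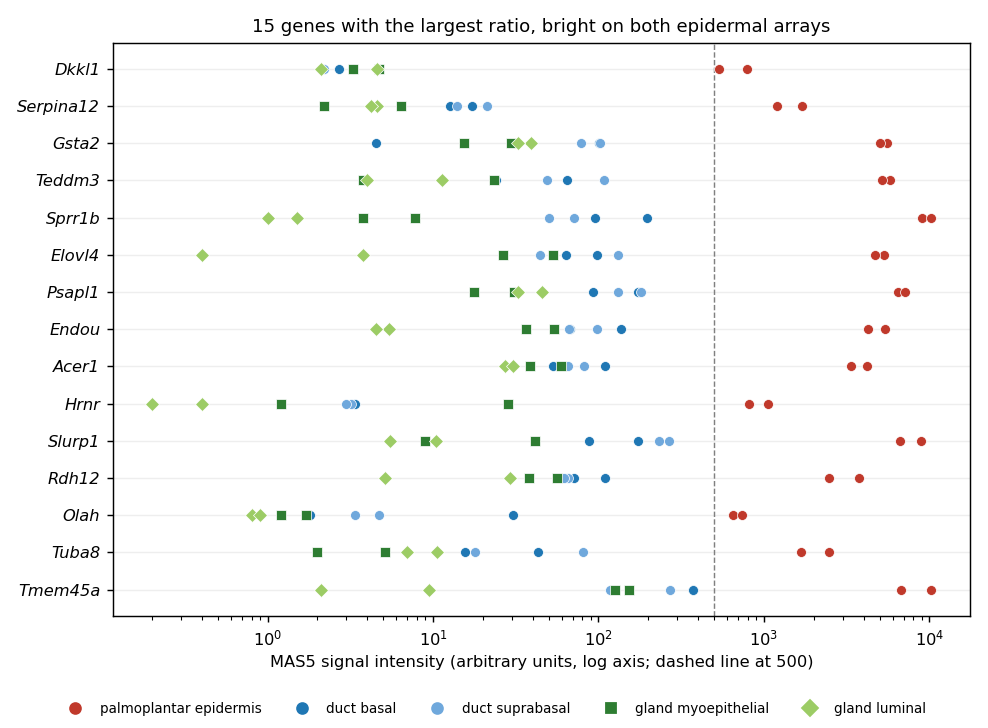
MAS5 signal on a log axis of the 15 bright genes with the largest ratio of the lower epidermal signal to the highest sweat signal; each point is 1 array, coloured by population, and the dashed line marks a signal of 500. Both epidermal arrays lie right of the line for each gene, and no sweat array exceeds 373.5.

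Of the 85 bright genes 8 belong to the cornified envelope list. Of its 25 tested members 15 were higher in epidermis and 1 was lower, and after quantile normalization 20 were higher and 1 lower. The filter asked for signal on 2 arrays, so a member high on the epidermal arrays alone was tested. Members low everywhere were not. Without the filter 17 of the 36 measured members were higher. The median log2 difference of the 25 tested was 1.77, or 1.16 with signals under 60.3 set to that value. Sprr1b, a small proline-rich protein that is cross-linked into the envelope, had signals of 8955 and 10158 on the epidermal arrays, against 1.0 to 197 (median 29) on the sweat arrays. Hrnr, the filaggrin-like hornerin, had 815 and 1061 in epidermis, against 0.2 to 28.4 (median 2.1) in the sweat populations, at least 13.5 times higher when sweat signals below 60.3 are set to that value. That value is the floor for each "at least" below. Where all signals of a gene on 1 side lie under it, the fitted log2 difference depends on the pseudocount, so the bound is given with the adjusted p.

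Stfa3, a stefin that inhibits cysteine proteases, reached 5303 and 4037 in epidermis, against 0.9 to 299.8 (median 42.6) in the sweat populations. Cst6, the cystatin that restrains cathepsins and legumain in the outer epidermis, reached 5499.8 and 7339 in epidermis, against 6.2 to 391.9 (median 135) in the sweat populations. The transglutaminases Tgm1 and Tgm3, which form the cross-links (loss of human TGM1 causes lamellar ichthyosis), had 1098 and 1389, against 32.4 to 199 (median 66.5), and 533 and 781, against 39 to 119 (median 67.2) in the sweat populations. Lor, the envelope protein loricrin, had 1125 and 1009 in epidermis, against 38.1 to 119 (median 78.5) in the sweat populations. In each of these genes the lower epidermal array exceeded the highest sweat array at least 4-fold.

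Not the whole envelope set was this far apart. S100a10, a calpactin light chain gene of the same chromosomal cluster, was lower, at 8517 and 8091 in epidermis, against 10548 to 26270.4 (median 19623) in the sweat populations (log2 difference -1.07, SE 0.22, adjusted p = 0.0033, limma). Ppl, the scaffold protein periplakin, had 576 and 718 in epidermis, against 208 to 827 (median 463) in the sweat populations (adjusted p = 0.0517), and Sprr1a had 621 and 464 in epidermis, against 67.8 to 3239 (median 409) in the sweat populations (adjusted p = 0.264), so neither passed. Ivl, involucrin, stayed under the filter with 58.1 and 33.5 in epidermis, against 0.9 to 15 (median 4.2) in the sweat populations. Flg, profilaggrin, had low signals on this platform but was higher, at 154 and 99 in epidermis, against 10.4 to 48.3 (median 15.2) in the sweat populations (at least 1.64 times over the highest sweat array, adjusted p = 0.00205).

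Sprr1b and Lor are shown with the 150 bases before their transcription start. Both are bright genes of the same chromosomal cluster whose promoters hold TGANTCA and TATAAA. The same is true of Sprr2d, which is not shown. The sequences are RefSeq's, in build GRCm38.p6, written on the gene's strand, which is the minus strand for both. Capitals mark TGANTCA, a pattern that matches at the same place on either strand and that includes the AP-1 consensus, and TATAAA on the gene's strand; the motifs do not overlap. In Sprr1b (chr3:92438780-92438929) they begin 111 and 30 bases before the start, and in Lor (chr3:92083143-92083292) 48 and 27 bases before it. In Lor the first is an AP-1 consensus, TGAGTCA, while in Sprr1b it is TGAATCA, which is not.
Sprr1b: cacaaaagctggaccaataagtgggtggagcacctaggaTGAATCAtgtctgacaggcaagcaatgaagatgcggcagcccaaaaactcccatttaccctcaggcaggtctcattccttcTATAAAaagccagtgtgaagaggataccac
Lor: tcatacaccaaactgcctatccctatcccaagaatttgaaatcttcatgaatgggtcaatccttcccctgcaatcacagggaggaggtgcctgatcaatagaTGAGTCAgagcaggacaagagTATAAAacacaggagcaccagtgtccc

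Promoter windows of 300 bases were found for 66 of the 85 bright genes, 71 windows in all. TGANTCA stood in 14.1% of them, in 7.83% of 115 windows of 77 dim genes, and in 7.81% of all 32851 windows. TATAAA stood in 14.1% of the windows of bright genes, in 7.83% of those of dim genes and in 8.32% of all. A match describes the letters in the window and shows no binding.

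The epidermal differentiation complex, the chromosomal cluster that runs between S100a8 and S100a10, held 5 bright genes: S100a8, Lor, Sprr2d, Sprr1b and Hrnr. Of its 32 measured genes 20 were tested, 13 were higher and 1, S100a10, was lower. In the type II keratin cluster from Krt80 to Krt18, 7 of 18 tested genes were higher and 3 lower (all genes: 19.2% and 33.4%). There the bright genes Krt6b, Krt2 and Krt1 and the dim gene Krt8 lie in the same cluster, with Krt18, next to Krt8, at least 7.36 times under the lowest sweat array. Of the 85 bright genes 12 had another bright gene within 5 measured genes, and of the 97 dim genes 14 had another dim gene that near. A share for genes at large was not computed, so these counts do not show clustering.

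**Figure D3:**
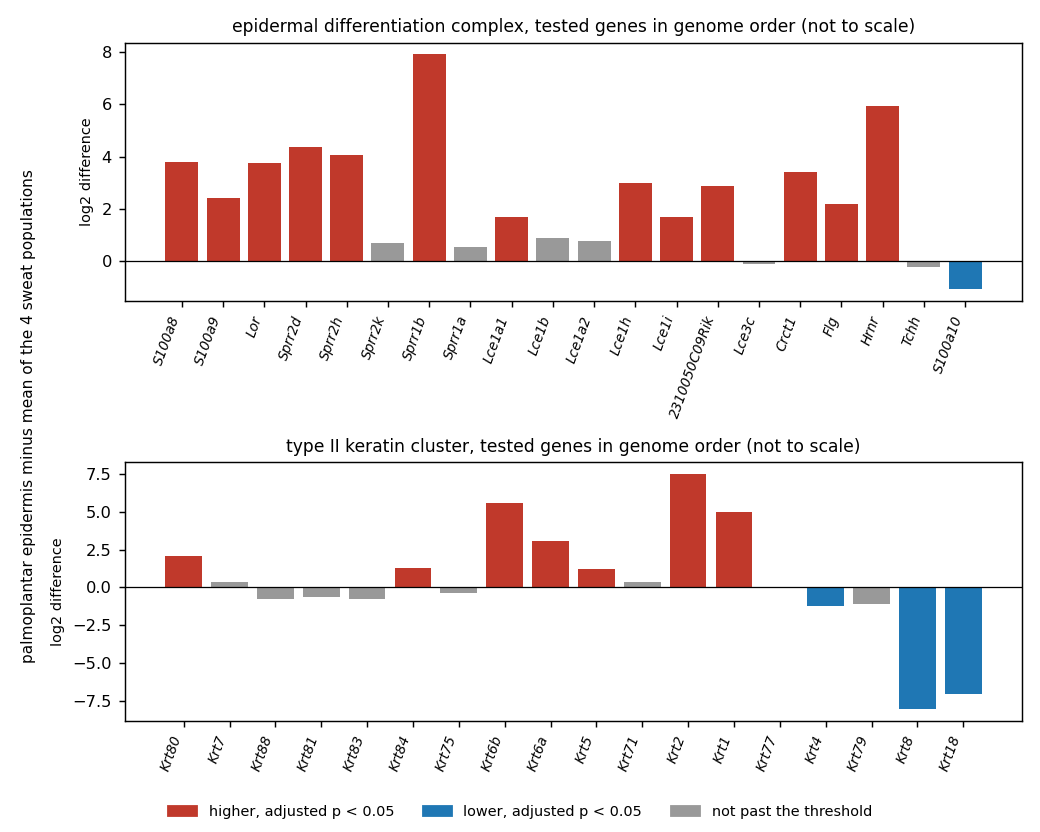
Log2 difference of the tested genes of the epidermal differentiation complex and of the type II keratin cluster, palmoplantar epidermis minus the mean of the 4 sweat populations, in genome order and not to scale; colour marks the limma call. In the upper panel 13 bars are called higher and 1 lower, and in the lower panel the higher calls include Krt6b, Krt2 and Krt1 and the lower calls Krt8 and Krt18.

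Keratins and early markers of the suprabasal layers were higher for 12 of 14 tested members and lower for none, with a median log2 difference of 4.0; 5 of the 12 are bright genes. Where a list below is said to hold no member called in 1 direction, limma at an unadjusted p under 0.05 gave 0 as well. Calm4, a calcium sensor of differentiating keratinocytes, had 31707 and 29500.2 in epidermis, against 3.8 to 3915 (median 841) in the sweat populations. Lypd3, a GPI-anchored surface protein, had 7212 and 6778 in epidermis, against 48.1 to 861 (median 284) in the sweat populations. Krtdap, the keratinocyte differentiation-associated protein, was above every sweat array but closer to them, and had 35491 and 32834 in epidermis, against 66.5 to 24544 (median 6377) in the sweat populations (log2 difference 4.35, SE 0.52, adjusted p = 1.50e-04). Its highest sweat signal was on duct basal array 2, and both gland populations stayed under 429. With the 8 sweat arrays as 1 group 7 were higher.

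Among 24 differentiation transcription factors the calls were split, 9 higher and 9 lower, against 19.2% higher and 33.4% lower of all genes (5 lower without epidermis array 2; 3 higher and 1 lower with the 8 sweat arrays as 1 group). Ovol1, a zinc finger factor that promotes exit from the cell cycle, is a bright gene, with 1195 and 1021 in epidermis, against 27.4 to 280.2 (median 155) in the sweat populations. Gata3, a regulator of barrier genes, had 187 and 176 in epidermis, against 0.7 to 33.1 (median 13.6) in the sweat populations (at least 2.92 times over the highest sweat array, adjusted p = 3.45e-04), and the nuclear receptor Rora had 1192 and 1073 in epidermis, against 261 to 709 (median 433) in the sweat populations (log2 difference 1.42, SE 0.23, adjusted p = 7.75e-04). The lower side held the Ets factors Ehf, at 129 and 107 in epidermis, against 177 to 8270.2 (median 1238) in the sweat populations (log2 difference -3.45, SE 0.76, adjusted p = 0.00453), and Elf3, at 77.7 and 56.9 in epidermis, against 137 to 498 (median 219) in the sweat populations (log2 difference -1.74, SE 0.25, adjusted p = 4.28e-04). Tfap2c and Klf5 overlapped the sweat range and did not pass, with adjusted p = 0.317 and 0.911.

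Lipid genes of the skin barrier were mostly higher, 20 of 32 tested, with 7 lower (4 lower without epidermis array 2). All genes tested had shares of 19.2% higher and 33.4% lower. The median log2 difference of the 32 was 1.08, and 4 of the 20 are bright genes. Elovl4, the elongase that makes the ultra-long fatty acids of barrier ceramides, had 5330.2 and 4686 in epidermis, against 0.4 to 132 (median 48.6) in the sweat populations. Acer1, the alkaline ceramidase of the epidermis, had 3376 and 4186 in epidermis, against 27.2 to 109.6 (median 56.3) in the sweat populations, and Plbd1, a phospholipase B domain protein, had 4319 and 3860.4 in epidermis, against 15.2 to 469 (median 127) in the sweat populations. All 3 are bright genes, and so is the ceramide synthase gene Cers4, with 1673 and 2123 in epidermis, against 3.1 to 273 (median 87.6) in the sweat populations.

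Other lipid genes were on the lower side. Cers2, another ceramide synthase, had 21.4 and 51.9 in epidermis, against 379.8 to 2243 (median 891) in the sweat populations (at least 6.3 times under the lowest sweat array, adjusted p = 8.75e-06). Fads1, a desaturase of polyunsaturated fatty acids, had 29.7 and 29 in epidermis, against 373 to 2196 (median 742) in the sweat populations (at least 6.18 times under the lowest sweat array, adjusted p = 3.97e-06), and Far1, a fatty acyl reductase for ether lipids, had 261 and 249.2 in epidermis, against 418 to 726 (median 572) in the sweat populations (log2 difference -1.11, SE 0.23, adjusted p = 0.00332). Between the ceramide synthases the order of the groups was thus opposite, with no overlap between epidermal and sweat arrays for either gene. Scd1 and Smpd1 did not pass (adjusted p = 0.559 and 0.598).

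Sterol synthesis was higher for 16 of 19 tested genes and lower for 1, Srebf1, with a median log2 difference of 1.44; pooling the 8 sweat arrays gave 10 higher. Enzymes between mevalonate and farnesyl pyrophosphate were among them. Mvk, mevalonate kinase, had signals of 1209 and 1157 on the epidermal arrays, against 139 to 275 (median 188) on the sweat arrays. Pmvk, the next kinase, had 2959.6 and 2979 in epidermis, against 201 to 472 (median 352) in the sweat populations, and Fdps, farnesyl pyrophosphate synthase, had 8022 and 6786 in epidermis, against 195 to 1847 (median 1228) in the sweat populations, though the only other probe set of Fdps had the opposite sign. Their human counterparts MVK, PMVK and FDPS are mutated in porokeratosis, a disorder of cornification. Sult2b1, which makes cholesterol sulfate, had 934 and 1111 in epidermis, against 3.7 to 199.5 (median 61.2) in the sweat populations. These 4 are bright genes, whereas Dhcr7, a late enzyme, had 1503 and 755 in epidermis, against 349.5 to 1845 (median 855) in the sweat populations and Lss, lanosterol synthase, 266 and 190.3 in epidermis, against 145 to 416 (median 238) in the sweat populations, and neither passed (adjusted p = 0.258 and 0.876). Srebf1, named after its value was seen, had 2242 and 1763 in epidermis, against 2197 to 4716 (median 4017) in the sweat populations (log2 difference -0.89, SE 0.18, adjusted p = 0.00322).

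Proteases of desquamation and their inhibitors were higher for 18 and lower for 7 of 32 tested, against 19.2% higher and 33.4% lower of all genes. The median log2 difference of the 32 was 1.45, and 6 of the 18 are bright genes. Serpina12, or vaspin, which inhibits human kallikrein 7, had 1195 and 1689 in epidermis, against 2.2 to 21.2 (median 9.6) in the sweat populations, at least 19.8 times higher. Wfdc12, a whey acidic protein-type inhibitor, had 2844 and 3849.6 in epidermis, against 2.4 to 281 (median 83.5) in the sweat populations. Serpinb7, whose human counterpart is mutated in Nagashima-type palmoplantar keratosis, had 2552 and 2925 in epidermis, against 2.8 to 649 (median 41.8) in the sweat populations. All 3 inhibitors are bright genes. Klk7, the protease itself, named here for Serpina12 after its values were seen, had 471 and 161 in epidermis, against 1.5 to 61 (median 12.2) in the sweat populations (log2 difference 3.53, SE 0.49, adjusted p = 3.48e-04), with the epidermal arrays nearly 3-fold apart.

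The lower side held inhibitors and proteases as well. Serpinb9, an inhibitor of granzyme B, had 21.4 and 23.2 in epidermis, against 244 to 1451 (median 448) in the sweat populations (at least 4.05 times under the lowest sweat array, adjusted p = 3.04e-06). Ctsl, cathepsin L, had 379.9 and 996 in epidermis, against 1485 to 15358 (median 4149) in the sweat populations (log2 difference -2.73, SE 0.49, adjusted p = 0.00141), and Spint2, a Kunitz inhibitor of membrane serine proteases, had 5526 and 4912 in epidermis, against 9411 to 28229.8 (median 11880.3) in the sweat populations (log2 difference -1.43, SE 0.21, adjusted p = 5.26e-04). Ctsd, cathepsin D, overlapped and did not pass (adjusted p = 0.453).

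Several of the bright genes with the largest ratios lie outside these lists. Slurp1, a secreted Ly6-type protein whose loss in humans causes the palmoplantar keratoderma mal de Meleda, had signals of 6596 and 8875 on the epidermal arrays, against 5.5 to 265 (median 64.8) on the sweat arrays. Endou, a poly(U)-specific endoribonuclease, had 5376 and 4273 in epidermis, against 4.5 to 138 (median 60.4) in the sweat populations, and Psapl1, a prosaposin-like protein, had 6414 and 7118 in epidermis, against 17.8 to 181 (median 69) in the sweat populations. Olah, a thioesterase that releases fatty acids from fatty acid synthase, had 651 and 737 in epidermis, against 0.8 to 30.5 (median 1.8) in the sweat populations, at least 10.8 times higher. Rdh12, a retinol dehydrogenase, had 3741 and 2477 in epidermis, against 5.1 to 109.9 (median 59) in the sweat populations. Sweat signals of each of these genes stayed under 265, and the luminal arrays were the lowest or among the lowest for Slurp1, Endou, Rdh12 and Olah.

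Teddm3 had 5738 and 5133 in epidermis, against 3.8 to 108 (median 23.8) in the sweat populations, and Tuba8, an alpha-tubulin, had 2488 and 1675 in epidermis, against 2.0 to 80.2 (median 13) in the sweat populations. Tmem45a, a transmembrane protein gene, had 10285 and 6756 in epidermis, against 2.1 to 374 (median 139.6) in the sweat populations. Dkkl1, a Dickkopf-like gene known from the mouse testis, had the largest measured ratio but from the lowest sweat signals, 795 and 537, against 2.1 to 4.7 (median 3.0), so that its difference is given as at least 8.9-fold. Trbv1, named after its values were seen, is a variable segment of the T cell receptor beta chain, and had 2130.2 and 2170.4 in epidermis, against 15.3 to 126 (median 33.3) in the sweat populations, although Cd3e and Cd3g were not detected above the filter. Trbv1 has only 1 probe set, of suffix x_at, and its cross-hybridisation was not tested.

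Gap and tight junction genes went both ways, 8 of 19 higher, 2 of them bright, and 6 lower, 1 of them dim (5 higher without either epidermal array, and 3 lower without epidermis array 2; 3 higher and 3 lower with the 8 sweat arrays as 1 group). The shares over all genes were 19.2% higher and 33.4% lower. The 4 higher genes that lay above every sweat array were connexins. Gjb5 had 2661 and 2528 in epidermis, against 1.5 to 239.6 (median 55) in the sweat populations, and Gjb6, whose human counterpart is mutated in Clouston ectodermal dysplasia, had 899.5 and 1362 in epidermis, against 6.3 to 292 (median 57.1) in the sweat populations. Gjb2, a connexin mutated in human Vohwinkel keratoderma, had 1565 and 1867 in epidermis, against 41.6 to 598 (median 132) in the sweat populations (log2 difference 3.57, SE 0.25, adjusted p = 7.69e-06), and Gja1 had 21261 and 23777 in epidermis, against 121 to 15105 (median 6004) in the sweat populations (log2 difference 3.23, SE 0.32, adjusted p = 5.01e-05). The 3 lower genes below every sweat array were claudins. Cldn3 had 5.2 and 6.9 in epidermis, against 110.0 to 5023 (median 950.0) in the sweat populations (at least 1.82 times under the lowest sweat array, adjusted p = 5.76e-05), Cldn7 had 15.6 and 19.5 in epidermis, against 65.9 to 4537 (median 676) in the sweat populations (at least 1.09 times under the lowest sweat array, adjusted p = 2.19e-04), and the dim gene Cldn8 had 103 and 95.8 in epidermis, against 747 to 14128 (median 3297) in the sweat populations. Other claudins passed in the other direction within the sweat range, among them Cldn1, the claudin of the epidermal barrier in mice, at 1162 and 1019 in epidermis, against 56.4 to 1247 (median 226) in the sweat populations (log2 difference 1.99, SE 0.50, adjusted p = 0.00872), which was named after its values were seen.

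Desmosomal genes were higher for 8 of 14, 1 of them bright, and lower for 3 (3 higher with the 8 sweat arrays as 1 group). Shares over all genes were 19.2% higher and 33.4% lower. Dsc1, the desmocollin of the outermost living layers, is a bright gene with 506 and 551 in epidermis, against 1.7 to 44.3 (median 15) in the sweat populations, at least 8.38 times higher, and the plakophilin Pkp1 had 16499.6 and 15381 in epidermis, against 241 to 7448 (median 2442) in the sweat populations (log2 difference 3.17, SE 0.21, adjusted p = 5.68e-06). Dsg2, the desmoglein of simple epithelia, was lower, at 336 and 377 in epidermis, against 899 to 5154 (median 2892) in the sweat populations (log2 difference -2.79, SE 0.39, adjusted p = 3.29e-04), as was Pkp4 (log2 difference -2.28, SE 0.21, adjusted p = 3.19e-05). The third lower gene was Pkp2, at 3.8 and 3.4 in epidermis, against 2.2 to 1689 (median 267) in the sweat populations (adjusted p = 0.00511), where 1 myoepithelial array was below the epidermal arrays; it was named after its values were seen.

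Detoxification genes were found on both sides, 14 higher and 13 lower of 39 (6 lower without epidermis array 1 and 8 without epidermis array 2; 6 higher and 5 lower with the 8 sweat arrays as 1 group). Over all genes 19.2% were higher and 33.4% lower. Gsta2, an alpha-class glutathione transferase, had 5540.4 and 5059.9 in epidermis, against 4.5 to 103 (median 35.8) in the sweat populations, and Cbr3, a carbonyl reductase, had 11287 and 11761 in epidermis, against 391 to 1663 (median 847) in the sweat populations; both are bright genes. Gstt1, a theta-class transferase, was lower, at 2.9 and 28.6 in epidermis, against 304 to 1182 (median 551) in the sweat populations (at least 5.04 times under the lowest sweat array, adjusted p = 6.30e-06), and so were the epoxide hydrolase Ephx1, at 312 and 365 in epidermis, against 1031 to 5356 (median 1932) in the sweat populations (log2 difference -2.61, SE 0.24, adjusted p = 3.62e-05), and Nqo1, a quinone reductase, at 364 and 324 in epidermis, against 943 to 2615 (median 1277) in the sweat populations (log2 difference -1.97, SE 0.17, adjusted p = 2.16e-05). Probe sets of glutathione transferases of 1 class can cross-hybridise, which was not tested.

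Stress keratins and epidermal cytokines were higher for 11 of 22, 5 of them bright, and lower for 6. Of all genes 19.2% were higher and 33.4% lower. The median log2 difference of the 22 was 1.55 (0.88 with signals under the floor set to it). Krt16 and Krt6b are keratins of palms, soles and wounds whose human counterparts are mutated in pachyonychia congenita. Krt16 had 3086 and 4656 in epidermis, against 1.1 to 759.8 (median 100.1) in the sweat populations. Krt6b had 3863 and 5315 in epidermis, against 23.7 to 344 (median 72.6) in the sweat populations. Defb1, a beta-defensin, had 1506 and 1351 in epidermis, against 5.7 to 329 (median 107) in the sweat populations, and S100a8, a calprotectin subunit, had 589 and 613 in epidermis, against 10.1 to 94.1 (median 31.4) in the sweat populations. All 4 are bright genes. The chemokines Cxcl1 and Ccl27a, both known from keratinocytes, were lower. Cxcl1 had 46.3 and 48.2 in epidermis, against 325 to 1123 (median 510.4) in the sweat populations (at least 5.39 times under the lowest sweat array, adjusted p = 1.86e-04) and Ccl27a had 10.7 and 19.3 in epidermis, against 112 to 373 (median 219) in the sweat populations (at least 1.86 times under the lowest sweat array, adjusted p = 2.16e-05). Stat3, which relays cytokine signals, was lower too (log2 difference -1.56, SE 0.20, adjusted p = 2.17e-04).

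**Figure D4:**
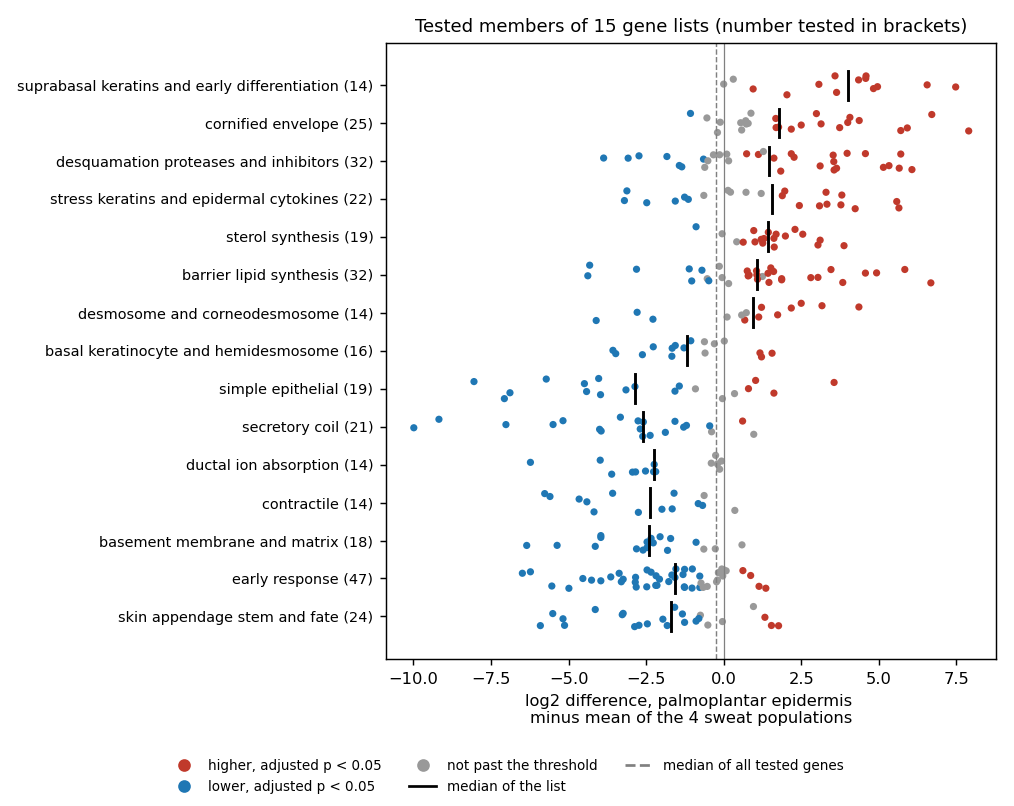
Log2 difference, palmoplantar epidermis minus the mean of the 4 sweat populations, of every tested member of 15 gene lists; each point is 1 gene, coloured by its limma call, black bars are list medians and the dashed line is the median of all tested genes, -0.25. Medians run from 4.0 for suprabasal keratins and early differentiation to -2.86 for simple epithelial genes (-1.54 with signals under the floor set to it), and most lists on the higher side also hold members on the lower side.

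The 97 dim genes (0.783% of all genes) had epidermal signals from 1.1 to 3802 and were a median of 4.86 times lower than the lowest sweat array. The epidermal arrays lay within 2-fold of each other for 87 of the 97 and were up to 5.36-fold apart. For 22 the measured ratio was at least 10 (20 at the floor), and for 8 both epidermal signals were under the 40th percentile of their array. Their highest sweat signal was on a luminal array for 39 genes and on a myoepithelial array for 36, against 17 on a duct suprabasal and 5 on a duct basal array. The lowest of the 8 sweat signals was on a duct basal array for 43. That population thus most often held the sweat signal nearest to epidermis among the dim genes. For these counts, too, none over all genes was made. Of the 69 dim genes with several probe sets, another lay outside the sweat range the same way for 61 and had the opposite sign for 6 (Fxyd2, Tgfbr2, Lasp1, Pxn, Tbx3 and App). Just inside the limit were Tesc (3.04), App (3.05) and Slc20a1 (3.1), and just outside were Dgkz (2.91), Itm2c (2.97) and Sec14l1 (2.99).

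**Figure D5:**
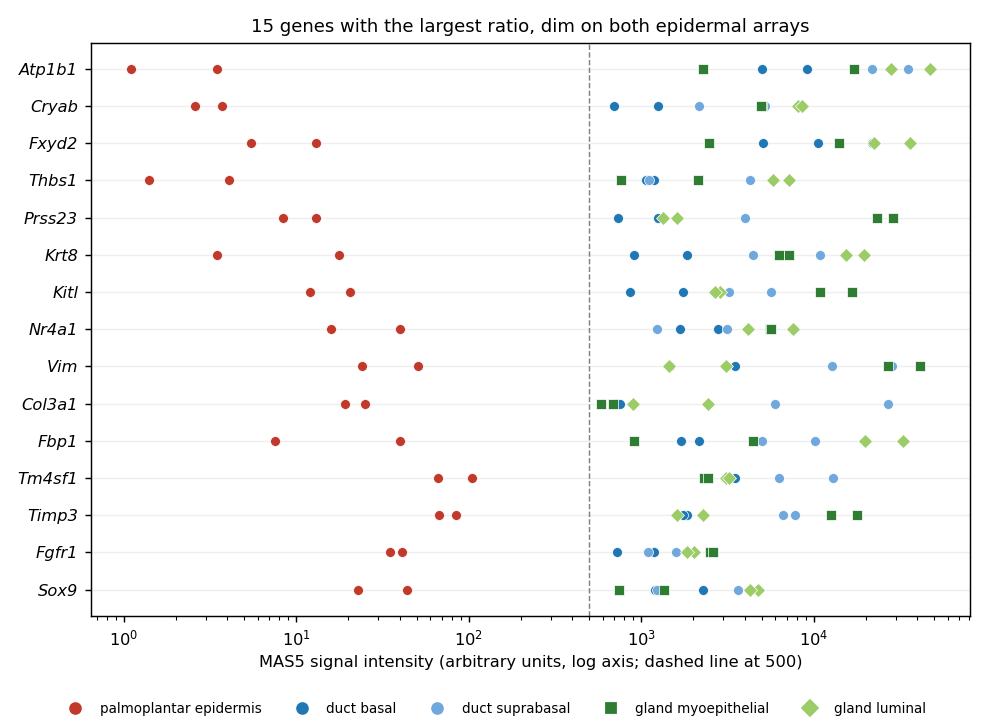
MAS5 signal on a log axis of the 15 dim genes with the largest ratio of the lowest sweat signal to the higher epidermal signal; each point is 1 array, coloured by population, and the dashed line marks a signal of 500. All 8 sweat arrays lie right of the line for each gene, while no epidermal signal exceeds 105.

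Pump, channel and secretion genes were among those furthest apart. Atp1b1, the beta subunit of the sodium pump, had signals of 3.5 and 1.1 on the epidermal arrays, against 2297 to 47608 (median 19539) on the sweat arrays, at least 38.1 times lower in epidermis. Fxyd2, which modulates the pump, had 5.5 and 13.1 in epidermis, against 2467 to 36212 (median 14054) in the sweat populations, at least 40.9 times lower, with 1 of 3 other probe sets of the opposite sign. Of 21 tested secretory coil genes 18 were lower, 2 of them dim, and 1, Xbp1, was higher, with a median log2 difference of -2.61; pooling the 8 sweat arrays gave 9 lower. Kcnn4, the calcium-activated potassium channel, had 5.5 and 8.4 in epidermis, against 311 to 14278 (median 2308) in the sweat populations (at least 5.16 times under the lowest sweat array, adjusted p = 4.64e-05), and the forkhead factor Foxi1, known from proton-pumping cells, had 2.9 and 1.4 in epidermis, against 84.6 to 4566 (median 507) in the sweat populations (at least 1.4 times under the lowest sweat array, adjusted p = 1.75e-04). Slc12a2, the cotransporter itself, was lower but still at 4473 and 5105 in epidermis, against 12177 to 38537 (median 25799.6) in the sweat populations (log2 difference -2.37, SE 0.24, adjusted p = 6.08e-05). Xbp1, a regulator of secretory capacity, overlapped the sweat range at 9398 and 7268 in epidermis, against 3537 to 8132 (median 5676) in the sweat populations (log2 difference 0.61, SE 0.16, adjusted p = 0.0122), and 1 of its 3 other probe sets had the opposite sign.

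Genes of salt reabsorption in the duct were lower for 9 of 14, 1 of them dim, and higher for none. Atp6v1b1, a subunit of the proton pump, had 4.4 and 26.9 in epidermis, against 227 to 12450.3 (median 1731) in the sweat populations (at least 3.77 times under the lowest sweat array, adjusted p = 4.64e-05), and Car12, a membrane carbonic anhydrase, had 427 and 523 in epidermis, against 1258 to 21517 (median 5344) in the sweat populations (log2 difference -3.61, SE 0.50, adjusted p = 3.22e-04). Fxyd3 was abundant in every population and did not pass, with 23084 and 21929.9 in epidermis, against 18561 to 31417 (median 22410.0) in the sweat populations (adjusted p = 0.8). Fxyd2 and Fxyd3, members of the same family of pump modulators, thus differed in pattern, with Fxyd3 signals of epidermis inside the sweat range.

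Simple epithelial genes were lower for 12 and higher for 4 of 19 (1 higher without epidermis array 1 and 2 without epidermis array 2), counting 1 dim and 1 bright gene, with a median log2 difference of -2.86. Krt8 was at least 15 times lower, Krt18 was lower as well (at least 7.36 times under the lowest sweat array, adjusted p = 2.90e-05), and Krt19 had 4.1 and 14.1 in epidermis, against 255 to 13119 (median 2166) in the sweat populations (at least 4.23 times under the lowest sweat array, adjusted p = 5.03e-05). Rab25, a small GTPase of epithelial recycling, went against the list: it is a bright gene with 6319 and 6989 in epidermis, against 35 to 1562 (median 927) in the sweat populations. The splicing regulator Esrp1 was also higher, at 4093 and 3656 in epidermis, against 863 to 2804 (median 2159) in the sweat populations (log2 difference 1.03, SE 0.30, adjusted p = 0.0164).

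Basal keratinocyte and hemidesmosome genes were more often lower than higher, as were all genes tested (33.4% lower and 19.2% higher). Of 16 tested, 9 were lower and 3 higher, and the 3 higher ones were the keratins Krt5 and Krt14 and the transcription factor Trp63, all with epidermal signals inside the sweat range (1 higher without either epidermal array, and 1 after quantile normalization; 0 with the 8 sweat arrays as 1 group by limma, also at an unadjusted p under 0.05). The 4 lower genes with the largest differences encode adhesion proteins. Itgb1, the beta-1 integrin, had 67.9 and 48 in epidermis, against 497 to 2344 (median 620.2) in the sweat populations (log2 difference -3.57, SE 0.21, adjusted p = 3.17e-06), with 1 of 5 other probe sets of the opposite sign. Lamb3, a chain of the anchoring laminin, had 123 and 115 in epidermis, against 422 to 5787 (median 1403) in the sweat populations (log2 difference -3.48, SE 0.18, adjusted p = 1.53e-06). The hemidesmosomal integrins were lower as well, Itgb4 at 89.9 and 81.9 in epidermis, against 221 to 1561 (median 592) in the sweat populations (log2 difference -2.62, SE 0.19, adjusted p = 8.30e-06) and Itga6 at 615 and 935 in epidermis, against 1988 to 6558 (median 3747) in the sweat populations (log2 difference -2.27, SE 0.18, adjusted p = 1.63e-05). Col17a1, the hemidesmosomal collagen, had 778 and 1566 in epidermis, against 26.3 to 15313 (median 4352) in the sweat populations and did not pass (adjusted p = 0.678), nor did the basal keratin Krt15 (adjusted p = 0.24).

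Of the genes for basement membrane and matrix, the lower ones numbered 15 of 18 and none was higher, with a median log2 difference of -2.41; 7 were lower with the sweat arrays as 1 group. Col4a1, a chain of collagen IV, had 3.2 and 1.4 in epidermis, against 166 to 12601 (median 676) in the sweat populations (at least 2.75 times under the lowest sweat array, adjusted p = 1.68e-05), and Col4a2 was at least 1.57 times under the lowest sweat array. The dim gene Col3a1, a fibrillar collagen of fibroblasts, had 25 and 19.1 in epidermis, against 587 to 26876 (median 824) in the sweat populations, with its highest value on duct suprabasal array 2, which also had the highest fibroblast sum. Thbs1, a matricellular protein, had 1.4 and 4.1 in epidermis, against 761 to 7181 (median 1662) in the sweat populations, at least 12.6 times lower, and Timp3, an inhibitor of metalloproteinases, had 67.5 and 84.5 in epidermis, against 1605 to 17899 (median 4487) in the sweat populations. Vim, the intermediate filament of mesenchymal and myoepithelial cells, had 24 and 51.2 in epidermis, against 1458 to 41324 (median 8147) in the sweat populations. The share of fibroblast and endothelial RNA in these differences was not tested.

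Contractile genes were lower for 12 of 14, 1 of them dim, and higher for none. With the sweat arrays as 1 group limma called 0 of them lower, and 4 at an unadjusted p under 0.05. Tagln, a smooth muscle actin-binding protein, had 1.7 and 2.7 in epidermis, against 111 to 29091 (median 295) in the sweat populations (at least 1.85 times under the lowest sweat array, adjusted p = 1.40e-05), and Myl9, a myosin light chain, had 3.5 and 6.2 in epidermis, against 168 to 36088 (median 282) in the sweat populations (at least 2.78 times under the lowest sweat array, adjusted p = 2.74e-06). The epidermal signals of both genes were under the lowest sweat signal. Tpm2, a tropomyosin, had 4098 and 4923 in epidermis, against 539 to 46861 (median 2923) in the sweat populations and did not pass (adjusted p = 0.297).

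Early response genes, which cells induce within minutes of growth factor, stress or dissociation signals, were lower for 33 of 47, 9 of them dim, and higher for 4 (2 without either epidermal array), with a median log2 difference of -1.57. Nr4a1, an orphan nuclear receptor, had 15.9 and 40 in epidermis, against 1235 to 7609.5 (median 3674) in the sweat populations, at least 20.5 times lower. Dusp6, a phosphatase of ERK, had 88.2 and 39.4 in epidermis, against 1395 to 6429.7 (median 3316) in the sweat populations, and Fos, named after its values were seen, had 785 and 1178 in epidermis, against 9862 to 28158 (median 19809) in the sweat populations. Ccn2, a matricellular target of YAP, had 19.2 and 17.5 in epidermis, against 147 to 17631 (median 2953) in the sweat populations (at least 2.44 times under the lowest sweat array, adjusted p = 3.42e-05). No epidermal array reached the lowest sweat array for these 4 genes. Gadd45a went the other way, at 432 and 363 in epidermis, against 111 to 253 (median 167) in the sweat populations (log2 difference 1.14, SE 0.23, adjusted p = 0.00241). The part of cell dissociation and sorting in this list was not tested.

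Dusp1, a phosphatase that ends MAP kinase signals, had 544 and 1660.2 in epidermis, against 6224 to 21452 (median 7947) in the sweat populations and was also named after its values were seen. Fos and Dusp1, both dim genes, are shown because their promoters are known targets of growth factor and cyclic AMP signals. Capitals mark TATAAA on the gene's strand in Fos (chr12:85473740-85473889, plus strand), beginning 33 bases before the start, and TGACGTCA, the cyclic AMP response element, which reads the same on either strand, in Dusp1 (chr17:26508473-26508622, minus strand), beginning 143 bases before it.
Fos: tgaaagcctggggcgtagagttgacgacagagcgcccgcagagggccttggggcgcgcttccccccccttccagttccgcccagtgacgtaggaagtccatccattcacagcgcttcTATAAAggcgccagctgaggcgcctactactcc
Dusp1: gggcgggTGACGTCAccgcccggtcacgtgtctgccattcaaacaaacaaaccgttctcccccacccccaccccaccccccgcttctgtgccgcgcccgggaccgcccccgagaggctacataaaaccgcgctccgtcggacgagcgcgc
Both are RefSeq sequences of build GRCm38.p6. TGACGTCA stood in 2.61% of the windows of dim genes, in 2.82% of those of bright genes and in 1.79% of all.

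Fate genes of skin appendages were mostly lower in epidermis. Of 24 tested fate genes 17 were lower, 4 of them dim, and 3 higher, with a median log2 difference of -1.70; 11 were lower with the sweat arrays as 1 group. Sox9, a stem cell factor of hair follicles and glands, had 44.1 and 22.7 in epidermis, against 744 to 4759 (median 1811) in the sweat populations, at least 12.3 times lower. Sox10, which marks neural crest and glandular cells, had 2.7 and 3.8 in epidermis, against 104 to 4292 (median 1486) in the sweat populations (at least 1.72 times under the lowest sweat array, adjusted p = 6.66e-06), and Foxc1, a forkhead factor that sweat glands of mice need, had 18.3 and 1.2 in epidermis, against 181 to 1831 (median 937) in the sweat populations (at least 3.01 times under the lowest sweat array, adjusted p = 7.20e-06). Runx1, a runt-domain factor of hair follicle stem cells, had 2.4 and 5.6 in epidermis, against 311 to 1112 (median 594) in the sweat populations (at least 5.15 times under the lowest sweat array, adjusted p = 2.87e-05). Epidermal signals of the last 3 genes were 18.3 or less.

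Among the dim genes with the largest ratios, 2 encode signalling proteins of the cell surface. Fgfr1, a fibroblast growth factor receptor, had 41.1 and 34.8 in epidermis, against 726 to 2618 (median 1716) in the sweat populations, at least 12 times lower. Kitl, the ligand of the Kit receptor of melanocytes and germ cells, had 12 and 20.5 in epidermis, against 863 to 16801 (median 3044) in the sweat populations, at least 14.3 times lower, and Kit itself had 11.7 and 12.7 in epidermis, against 70.2 to 2742 (median 499) in the sweat populations (at least 1.16 times under the lowest sweat array, adjusted p = 4.12e-04). Ligand and receptor transcripts were thus both below every sweat array.

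The remaining dim genes of large ratio have varied roles. Cryab, a small heat shock protein, had 3.7 and 2.6 in epidermis, against 700.4 to 8552 (median 4983) in the sweat populations, at least 11.6 times lower, and Prss23, a secreted serine protease, had 8.4 and 13.1 in epidermis, against 734 to 29026 (median 2817) in the sweat populations, at least 12.2 times lower. Fbp1, a gluconeogenic enzyme, had 40.2 and 7.5 in epidermis, against 914 to 33146 (median 4741) in the sweat populations, at least 15.2 times lower. Tm4sf1, a tetraspanin-like surface protein, had 105 and 66.1 in epidermis, against 2331 to 12982 (median 3289) in the sweat populations. For Fbp1 the sweat signals themselves ranged widely and were highest in luminal cells.

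Respiratory chain and ATP synthase genes showed small differences in the other direction: 24 of 48 were higher and 1 was lower, with a median log2 difference of 0.42. The count depends on scaling and arrays, being 13 higher and 5 lower after quantile normalization, 11 higher without epidermis array 1 and 9 without epidermis array 2. Uqcrq, a subunit of complex III, had 9958 and 10955 in epidermis, against 2898 to 6397 (median 4349) in the sweat populations (log2 difference 1.24, SE 0.24, adjusted p = 0.00217), and Ndufa9, of complex I, had 6121 and 5891 in epidermis, against 2445 to 3324 (median 2580.0) in the sweat populations (log2 difference 1.11, SE 0.13, adjusted p = 1.54e-04). The 1 lower gene was Sdha, of complex II, at 1294 and 1434 in epidermis, against 1848 to 2748 (median 2299) in the sweat populations (log2 difference -0.75, SE 0.14, adjusted p = 0.00154), named after its values were seen.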

How the data were processed

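Total RNA of sorted cells was extracted with Trizol and labelled for Affymetrix arrays, per the labels' protocols, and the authors deposited MAS5 intensities for each probe set, per the submitters' processing notes, without a version. No further scaling was applied. Of 22690 probe sets 20380 name 1 gene, and the brightest probe set by mean stood for each of 12393 genes, named through the platform table and RefSeq (GRCm38.p6); 0 columns of arrays were left unused. Where all signals of a gene on 1 side were under 60.3, the highest 40th percentile of an array, a bound is given in place of the log2 difference.

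Genes above the 40th percentile of an array on at least 2 of 10 arrays were tested with limma 3.58.1 (lmFit and eBayes with trend, R 4.3.3) on log2(signal + 12), 1 mean per population, after a test on simulated data. The pseudocount of 12 is the 20th percentile of all values and understates changes of genes with low signals. Benjamini-Hochberg adjustment ran over all 9320 genes. Alternatives changed the pseudocount, filter, scaling, variance trend, probe set choice, arrays and grouping, and the limits of the selection.

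Members and gene lists were chosen with earlier results of these data known. Named are the 15 bright and 15 dim genes of largest ratio, the 3 nearest each side of the limit, defining cell type markers and, per list, up to 4 genes a direction that passed at least 2-fold outside the sweat range and up to 2 of high mean signal that did not pass. Others were named after their values were seen.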

Additional observations from a re-analysis of the deposited data

Results flagged for a closer look

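Of 2246 probe sets that name no single gene, 23 met the limits for bright signal in palmoplantar epidermis and 13 met those for dim signal, in data outside the comparisons above. Among the 23, 14 have no entry in the gene table and 9 name several genes. Probe set 1422939_at, for which no gene is given here, had signals of 14844 and 11352 in epidermis, against 8.9 to 218 in the sweat populations. Probe set 1425102_a_at had 1490.2 and 1695 in epidermis, against 1.7 to 48.0. Among the 13 dim probe sets, 4 have no entry and 9 name several genes. Probe set 1421811_at had 9.3 and 10.1 in epidermis, against 6672 to 24366. All 4 globin-family probe sets that name several genes were dim, at 1.6 to 87.3 in epidermis, against 666 to 14645, while the single-gene probe set of Hba-a2 had 72.7 and 52.5 in epidermis, against 17.3 to 61.6.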

How the results depend on the processing

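Over 23 counts and 490 alternatives, 463 values stayed within 1.5 times the reported count. Pooling the 8 sweat arrays as 1 group gave 842 genes higher and 1528 lower, with 7 suprabasal, 10 sterol and 9 respiratory chain genes higher, and 9 secretory coil, 7 basement membrane, 11 appendage, 4 fibroblast, 0 contractile and 0 endothelial genes lower (by limma at an unadjusted p under 0.05, 4 contractile and 4 endothelial). Of the other lists, pooling gave higher counts of 3 or fewer for differentiation factors, desmosome, junction, simple epithelial, cell cycle, early response, Wnt and appendage genes, and lower counts of 5 or fewer for differentiation factors, barrier lipid, protease, detoxification, stress, junction, glycolysis, Wnt, Bmp, Notch, Hox and myeloid genes. Quantile normalization gave 553 genes lower than each population and 13 respiratory chain genes higher. Only duct basal and luminal cells as sweat populations, an alternative chosen after seeing the data, gave 15 respiratory chain genes higher, and leaving out the duct suprabasal population 6 endothelial genes lower. The 2-fold limit gave 193 bright and 159 dim genes, the 5-fold limit 47 and 48, and a signal limit of 1000 gave 50 dim genes. Pooling and the added alternative gave no counts against each population.

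Leaving out 1 array gave 1083 to 1910 genes higher, 2061 to 3371 lower, 240 to 344 higher than each population and 614 to 975 lower than each, both lowest counts of the first pair without an epidermal array. Bright genes ran from 85 to 108 and dim genes from 97 to 119. Leaving out an array can only loosen their limits, so these counts could not fall below 85 and 97. List counts higher ran from 11 to 12 (suprabasal), 13 to 17 (cornified envelope), 16 to 21 (barrier lipid), 14 to 16 (sterol), 15 to 19 (proteases and inhibitors), 10 to 13 (stress) and 9 to 25 (respiratory chain). Counts lower ran from 10 to 12 (simple epithelial), 13 to 18 (secretory coil), 9 to 9 (ductal), 9 to 13 (contractile), 10 to 15 (basement membrane), 8 to 10 (basal), 24 to 34 (early response), 12 to 19 (appendage), 8 to 9 (fibroblast) and 5 to 11 (endothelium).

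Replicate numbers are not described as pairing arrays, and same-numbered differences correlated at 0.026 to 0.357 between populations, not all above 0.1. The fit with the replicate block gave 1910 genes higher and 3319 lower, 359 and 960 against each population, and changed no list count by over 1.5 times. Without myoepithelial array 1 and duct suprabasal array 2 1926 genes were higher and 3282 lower. Only 2 arrays a population limit the precision, and signals under about 60.3 give bounds. Setting signals under the floor to it, an alternative chosen after seeing the data, brought several list medians nearer 0. On the lower side these included simple epithelial (-1.54), basement membrane (-1.80), appendage (-0.98), fibroblast (-2.07) and endothelial genes (-1.15). On the higher side they included cornified envelope (1.16 in place of 1.77) and stress keratin and cytokine genes (0.88 in place of 1.55). The median of cell cycle genes was -0.13 in place of 0.31.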

Other observations

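Circadian genes with a call were all lower in palmoplantar epidermis. By limma with Benjamini-Hochberg adjustment, 10 of 16 circadian genes were lower (8 after quantile normalization) and 0 higher (0 at an unadjusted p under 0.05). Over all genes 33.4% were lower. Per2, a repressor in the clock, had 1.1 and 10 in epidermis, against 86.9 to 489 (median 201) in the sweat populations (at least 1.44 times under the lowest sweat array, adjusted p = 8.59e-05), and the output factor Tef had 265 and 406 in epidermis, against 615 to 2004 (median 1361) in the sweat populations (log2 difference -1.92, SE 0.19, adjusted p = 5.01e-05), while Clock itself had 1540.4 and 1161 in epidermis, against 544 to 1628 (median 825) in the sweat populations (adjusted p = 0.0935). The hour of tissue collection is not given in the sources used here. Of 24 lysosome and autophagy genes 12 were lower (7 without epidermis array 1), led by Ctsz, cathepsin Z, at 6.9 and 3.9 in epidermis, against 231 to 2405 (median 721) in the sweat populations (at least 3.84 times under the lowest sweat array, adjusted p = 1.59e-04). Of 28 glycolysis and glycogen genes 12 were lower and 0 higher (2 at an unadjusted p under 0.05, and 2 after quantile normalization). The lysosome and glycolysis counts also stand against 33.4% lower of all genes. Hk1, the ubiquitous hexokinase, had 511 and 483 in epidermis, against 824 to 16649 (median 4215) in the sweat populations (log2 difference -3.15, SE 0.52, adjusted p = 9.52e-04), and the dim gene Ldhb, a lactate dehydrogenase subunit, had 125 and 93.1 in epidermis, against 926 to 3090.2 (median 1874) in the sweat populations.

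Signalling lists were mixed, and their counts stand against 19.2% higher and 33.4% lower of all genes. Of 26 Wnt and Eda genes 13 were lower and 4 higher (7 after quantile normalization; 2 without either epidermal array, duct basal array 2 or myoepithelial array 2). The bright gene Wnt4, a ligand, had 2302 and 2267 in epidermis, against 34.6 to 729.8 (median 248) in the sweat populations, and the dim gene Fzd7, a receptor, had 119.8 and 84.5 in epidermis, against 1729 to 10566 (median 1873) in the sweat populations. The Wnt effector Tcf7l1 had 35.8 and 38.5 in epidermis, against 226 to 976 (median 326) in the sweat populations (at least 3.74 times under the lowest sweat array, adjusted p = 3.26e-06). Of 23 Bmp and Tgf-beta genes 13 were lower and 3 higher. The ligand Tgfb2 had 34 and 26.9 in epidermis, against 163 to 1725 (median 446) in the sweat populations (at least 2.69 times under the lowest sweat array, adjusted p = 1.59e-05), and its receptor Tgfbr2, a dim gene, had 273 and 245 in epidermis, against 1467 to 4892 (median 2739) in the sweat populations. Of the 2 other probe sets of Tgfbr2, 0 lay outside the sweat range the same way and 1 had the opposite sign. Of 18 Notch genes 9 were lower and 2 higher (4 after quantile normalization). Nrarp, a target and inhibitor of Notch, was higher within the sweat range at 3499.6 and 2938 in epidermis, against 70.3 to 3469 (median 845) in the sweat populations (log2 difference 2.81, SE 0.25, adjusted p = 2.80e-05). Lrig1, a restraint on EGF receptors and a stem cell marker, was lower, at 28.5 and 13.8 in epidermis, against 139 to 1750.2 (median 583) in the sweat populations (at least 2.3 times under the lowest sweat array, adjusted p = 3.53e-05).

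Of 38 cell cycle genes 9 were higher and 3 lower (5 higher without either epidermal array, and 18 after quantile normalization), against 19.2% higher and 33.4% lower of all genes. None of the 9 lay above every sweat array, as for Birc5, survivin, at 307 and 385 in epidermis, against 5.0 to 2614 (median 68.8) in the sweat populations (log2 difference 1.47, SE 0.27, adjusted p = 0.00174). Mcm4, a subunit of the replicative helicase, was lower, at 196 and 224 in epidermis, against 301 to 2849 (median 762) in the sweat populations (log2 difference -1.81, SE 0.30, adjusted p = 9.28e-04). Of 15 Hox genes 6 were lower (2 without either epidermal array or after quantile normalization), against 33.4% of all genes, with a median log2 difference of -0.26, against -0.25. Hoxc8, a Hox gene of trunk position, had 54.4 and 75.5 in epidermis, against 359.8 to 1453 (median 523) in the sweat populations (log2 difference -2.95, SE 0.35, adjusted p = 1.49e-04). Ssr4, a subunit of the translocon-associated complex of the endoplasmic reticulum, was higher, at 13516 and 13009 in epidermis, against 2406 to 5771 (median 3846) in the sweat populations (log2 difference 1.85, SE 0.26, adjusted p = 3.48e-04), though 1 of 2 other probe sets had the opposite sign. Genes named here were chosen after their values were seen where they fall outside the rule.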
